A study of Homo sapiens with 2 samples.

Results

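The genes described here encode the heat shock chaperones of the cytosol and mitochondria, with their co-chaperones and the transcription factors that drive them. They were taken from a list of 41 gene symbols, and 39 of these had at least 1 probe with a single gene symbol, out of 20046 genes in all. The probes numbered 58. The heat shock factor gene HSF2 and the HSP90 activator gene AHSA1 had no such probe and were not analysed here. All 39 genes were above the floor, the median intensity of the array, on at least 1 array, and all 58 probes were too.

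Chaperones bind unfolded or partly folded proteins and keep them from aggregating. HSP70 proteins hold and release clients in cycles of ATP hydrolysis that J-domain proteins start and nucleotide exchange factors end. HSP90 takes over late folding steps of kinases and receptors, the ring-shaped CCT complex folds actin and tubulin, and small heat shock proteins hold unfolded clients without ATP. Under stress the transcription factor HSF1 is released from chaperones and binds heat shock elements, which are inverted repeats of the bases GAA, in the promoters of many of these genes. Tubulin, the client of CCT, is also the protein that vincristine binds.

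The groups were HCT-8, a colon cancer cell line, and its vincristine-resistant derivative HCT-8/V, both kept in RPMI medium that held fetal bovine serum. Per the labels both received the plasmid pcDNA3.1-Twist, which carries Twist, a transcription factor of epithelial-mesenchymal transition, 48 h before total RNA was taken. Both samples carry the same treatment text, and whether either was meant as an untreated control is not settled by it. If so, each difference below would also hold the effect of the plasmid. Each line was 1 culture on 1 array, so no value has a replicate check, no test was possible, and a difference can come from the line, the culture or the array. Neither sample is labelled as lacking the plasmid, so an effect of the plasmid on these genes could not be estimated. The question that the comparison addresses is how the chaperone genes differ between resistant and parental cells, both of which are labelled as given the plasmid.

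The labelled tissue was checked against 13 colon epithelium markers, of which 7 were below the floor on both arrays. These were CDH1, VIL1, CDX1, CDX2, KRT20, LGALS4 and MUC2. Of all 20046 genes 6283 were below it on both arrays. KRT8 (2199 in HCT-8 against 2283 in HCT-8/V) and KRT18 (445 and 560) were well above it. EPCAM (117 and 80.0), CDH17 (66.4 and 65.6) and GPA33 (40.9 and 47.1) were above it too, and KRT19 (12.8 and 12.8) only just. Of 10 mesenchymal markers 7 were above the floor on 1 array or both, as were 13763 of all 20046 genes. VIM was at 5921 and 5944, while FN1, COL1A2 and THY1 were below the floor on both arrays. The identity of the cultures could not be checked from these files, so HCT-8 and HCT-8/V are the names that the labels give. Log2 differences are HCT-8/V relative to HCT-8, so that negative values are lower in the resistant line, and where a pair of intensities is given HCT-8 comes first. Over all 13763 expressed genes the median log2 difference was 0.03. The spread was wider in dim genes. The median absolute log2 difference was 0.48 for genes with a mean intensity below the 75th percentile of all probes (81.3), 0.25 from there to an intensity of 1000, and 0.16 from 1000 upwards.

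Of the 38 chaperone genes above the floor on both arrays, 0 differed by 2-fold on the brightest probe, and BAG1, above it in HCT-8 alone, has only a bound. At that fold the background was 3.77% of expressed genes lower and 4.24% higher. Of the 39 genes, 22 read lower and 17 higher in HCT-8/V, with a median log2 difference of -0.09, against 47.1% lower and 52.8% higher over all expressed genes. At 1.5-fold, 4 were lower (HSPA2, DNAJB4, HSF1 and BAG1) and 3 were higher (HSPA13, CCT4 and CRYAB). The background at that fold was 11.2% of expressed genes lower and 12.8% higher, over genes of every brightness. Dim genes, with a mean below the 75th percentile, gave 1196 of its 1546 lower and 1302 of its 1760 higher calls. Only 2 of the 39 chaperone genes were that dim. From there to 1000, 2 of 18 chaperone genes were lower and 3 higher, against 329 and 443 of 6136 genes. From 1000 upwards 0 of 19 passed it, against 21 lower and 15 higher of 1566. At a log2 difference of at least 0.32 in size, 10 were lower and 7 higher, where the background was 22% and 25.8%. The backgrounds at this size and at 2-fold are likewise over genes of every brightness.

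The counts were also read by brightness. Of the 19 chaperone genes with a mean intensity of at least 1000, 13 read lower, against 49.2% of all genes that bright. In that range 5 were lower by a log2 difference of at least 0.32 and 0 were higher by as much, where the background was 9.9% in each direction. The 5 were HSPA8, HSPA1A, HSPE1, HSPH1 and CCT8. The median log2 difference of the 19 was -0.13, against 0.00 for all 1566 genes of that range. Of the 18 chaperone genes between the 75th percentile and 1000, 7 were lower and 11 higher (background 46% and 54%), with a median of 0.14. The other 2, HSF1 and BAG1, were dim and lower.

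**Figure D1:**
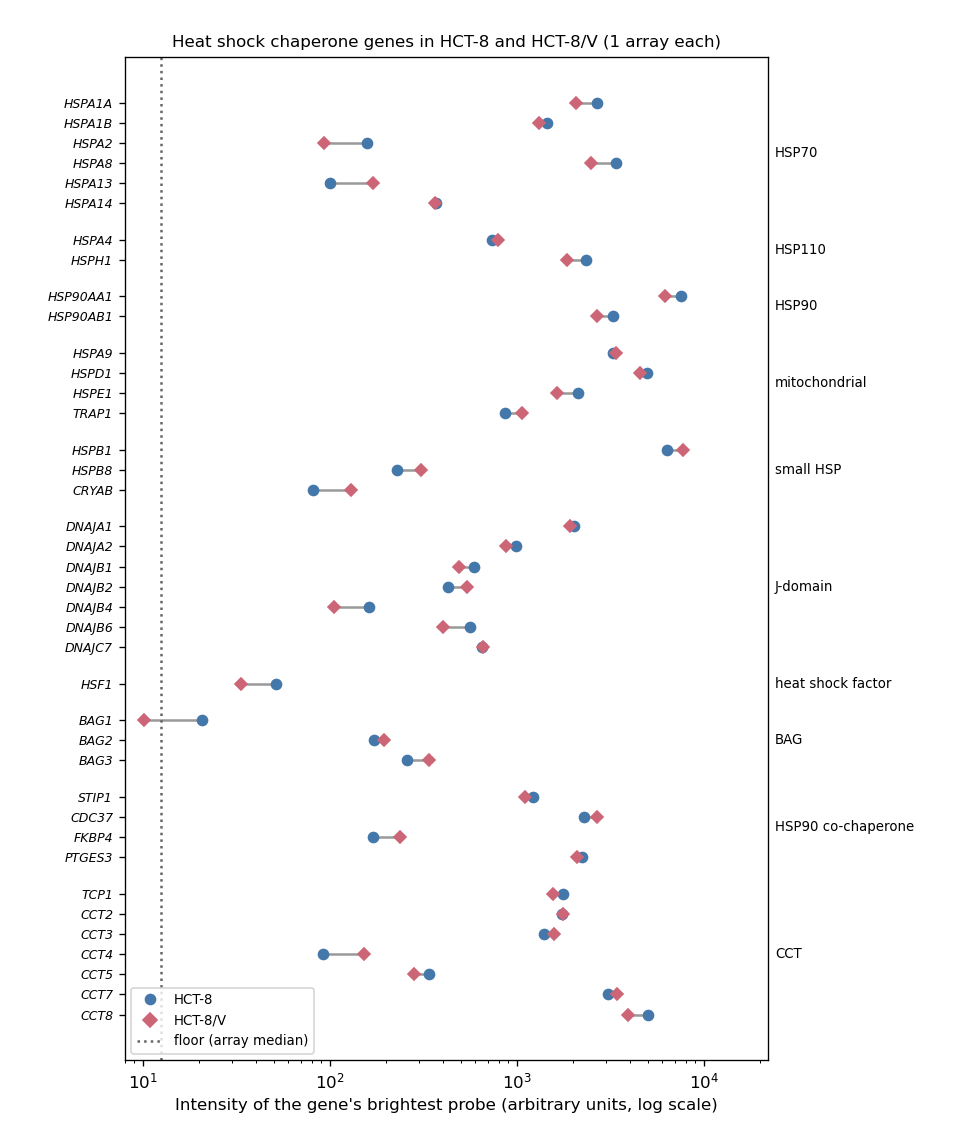
Intensity of the brightest probe of each of the 39 heat shock chaperone genes in HCT-8 (circles) and HCT-8/V (diamonds), 1 array each, on a log axis, grouped by role, with the floor dotted. HSPA8, HSPA1A and both HSP90 genes sit to the left in HCT-8/V, the 3 small heat shock protein genes sit to the right, and BAG1 crosses the floor.

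Of the 6 HSP70 genes outside mitochondria 5 read lower in HCT-8/V, against 47.1% of all expressed genes, and 1 of the 5 (HSPA14) was nearly level. The 7 further expressed HSP70 genes and partners were split, with 4 higher and 3 lower and a median log2 difference of 0.01. HSPA8, which encodes the constitutive HSC70 that serves most folding in unstressed cells, read 3406 in HCT-8 against 2488 in HCT-8/V (log2 -0.45, 1.37-fold lower). Its second probe read 2497 and 2169 (log2 -0.20). Both probes were thus lower, but by different amounts. HSPA1A and HSPA1B encode the stress-inducible HSP70, and their proteins are nearly the same. HSPA1A read 2667 and 2059 (log2 -0.37) and HSPA1B 1444 and 1315 (log2 -0.13). Because the genes are near-identical copies, either probe may bind transcripts of both, so a difference between them is uncertain.

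The remaining HSP70 genes were less uniform. HSPA2, a family member best known for its role in spermatogenesis, had the lowest log2 difference among the genes above the floor on both arrays, at 158 in HCT-8 against 92.7 in HCT-8/V (log2 -0.77, 1.71-fold lower). Its second probe read 107 and 40.7 (log2 -1.40, 2.64-fold lower), so HSPA2 was past 1.5-fold on both of its probes. HSPA14, which works with the ribosome, was level at 371 and 364. HSPA13, a microsome-associated relative, went the other way, at 100.4 and 169 (log2 0.75, 1.68-fold higher). All 3 of its probes were higher, at log2 0.75, 0.19 and 0.45.

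The HSP110 proteins are distant HSP70 relatives that act as nucleotide exchange factors for HSP70. HSPH1, itself strongly heat-inducible, read 2333 in HCT-8 against 1847 in HCT-8/V (log2 -0.34). HSPA4 read 736 and 788 (log2 0.10) on its brightest probe and 75.1 and 49.5 (log2 -0.60) on the other. The 2 probes of HSPA4 disagreed, so no direction can be given for it.

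J-domain proteins, which deliver clients to HSP70 and start its ATPase, were lower for 5 of 7 genes, of which DNAJA1 and DNAJA2 were close to level, against 47.1% of all expressed genes. Further J-domain genes, from a second list, went the other way, with 9 of 11 expressed genes higher and 2 lower. Their median log2 difference was 0.12, and over all expressed genes 52.8% were higher. DNAJB4 read 162 in HCT-8 against 105 in HCT-8/V (log2 -0.63), with its second probe at 122 and 87.4 (log2 -0.48). DNAJB6, a suppressor of aggregation of polyglutamine proteins, read 560 and 403 (log2 -0.47), with its second probe at 372 and 246 (log2 -0.60). Across both genes the 4 probes were lower by 1.39-fold to 1.55-fold. DNAJB1, the main heat-inducible J-domain protein, read 586 and 487 (log2 -0.27). DNAJA1 and DNAJA2 were at log2 -0.09 and -0.18. DNAJB2, a J-domain protein with ubiquitin-binding motifs, was higher at 428 and 539 (log2 0.33), and DNAJC7, which also contacts HSP90, read 649 and 662. The transcription factor HSF1 itself read 51.5 and 33.6 (log2 -0.62, 1.53-fold lower) on a single dim probe, in the range where 19.7% of genes were at least 1.5-fold lower.

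Because HSF1 acts through heat shock elements, the promoter windows of the chaperone genes were searched for them in RefSeq sequence of build GRCh38.p14, from 250 bases before to 50 after the start that RefSeq gives. A gene can have other start sites, and which start these cells use was not measured. Windows were found for 37 of the 41 listed genes. A 2-unit element was taken as GAANNTTC or TTCNNGAA, both of which read the same on either strand. A 3-unit element was taken as GAANNTTC followed after any 2 bases by GAA or, on the other strand, TTCNNGAA followed after any 2 bases by TTC, so that each 3-unit element contains both 2-unit forms. A 2-unit element stood in 11 of the 37 windows, against 13.5% of all 35116 promoter windows, and a 3-unit element in 3 of the 37, against 0.49% of all. Related gene sets held them too. Of 47 windows of other chaperone genes, 10 had a 2-unit and 2 a 3-unit element, and of 13 windows of endoplasmic reticulum chaperone genes 1 had each. The 3 genes with a 3-unit element were HSPA8, DNAJB6 and DNAJA1. All read lower in HCT-8/V, with a median log2 difference of -0.45, but DNAJA1 was close to level at -0.09. Over all expressed genes 47.1% were lower, and a link between element and direction was not tested. Of the 8 with a 2-unit element only, 5 were higher and 3 lower (median 0.11). Of the 24 measured genes with no such match in the window, 10 were higher and 14 lower (median -0.13). A match is a stretch of letters and not a shown binding site, and no HSF1 binding was measured.

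The windows below show the 3-unit elements, the paired HSPA1A and HSPA1B promoters, and HSPB8, a gene with 2-unit elements that read higher. Capitals mark every 2-unit match, so that overlapping matches form a longer run in capitals.
HSPA8 (chr11:123062087-123062386, minus strand): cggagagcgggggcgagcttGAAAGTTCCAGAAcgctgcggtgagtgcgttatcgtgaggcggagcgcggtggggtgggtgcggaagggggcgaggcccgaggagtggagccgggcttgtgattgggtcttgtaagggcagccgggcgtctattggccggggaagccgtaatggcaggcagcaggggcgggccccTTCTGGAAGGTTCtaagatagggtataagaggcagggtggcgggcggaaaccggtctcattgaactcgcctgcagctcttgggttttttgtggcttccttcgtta
DNAJB6 (chr7:157336754-157337053, plus strand): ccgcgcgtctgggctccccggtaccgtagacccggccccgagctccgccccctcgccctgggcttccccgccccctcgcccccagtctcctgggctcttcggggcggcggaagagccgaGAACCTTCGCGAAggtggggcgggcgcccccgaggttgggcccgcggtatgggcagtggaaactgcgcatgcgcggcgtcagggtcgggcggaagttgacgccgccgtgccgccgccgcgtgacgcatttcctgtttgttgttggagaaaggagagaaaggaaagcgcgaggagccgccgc
DNAJA1 (chr9:33025023-33025322, plus strand): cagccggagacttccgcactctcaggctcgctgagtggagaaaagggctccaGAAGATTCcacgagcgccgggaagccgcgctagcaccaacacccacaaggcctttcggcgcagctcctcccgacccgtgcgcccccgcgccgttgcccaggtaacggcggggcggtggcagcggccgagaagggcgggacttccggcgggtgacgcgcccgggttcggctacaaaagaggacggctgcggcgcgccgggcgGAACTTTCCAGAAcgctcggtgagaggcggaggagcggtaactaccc
HSPA1A (chr6:31815293-31815592, plus strand): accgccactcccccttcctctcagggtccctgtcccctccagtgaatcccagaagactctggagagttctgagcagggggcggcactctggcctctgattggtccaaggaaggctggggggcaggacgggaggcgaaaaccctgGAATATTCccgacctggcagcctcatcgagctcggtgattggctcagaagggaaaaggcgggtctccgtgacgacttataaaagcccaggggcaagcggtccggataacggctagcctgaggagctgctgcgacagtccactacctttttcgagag
HSPA1B (chr6:31827488-31827787, plus strand): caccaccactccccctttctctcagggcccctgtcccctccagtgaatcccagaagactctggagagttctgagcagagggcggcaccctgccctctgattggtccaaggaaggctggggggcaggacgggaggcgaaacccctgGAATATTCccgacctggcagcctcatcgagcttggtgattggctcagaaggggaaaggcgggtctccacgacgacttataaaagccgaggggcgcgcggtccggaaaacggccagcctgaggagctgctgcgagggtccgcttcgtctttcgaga
HSPB8 (chr12:119178681-119178980, plus strand): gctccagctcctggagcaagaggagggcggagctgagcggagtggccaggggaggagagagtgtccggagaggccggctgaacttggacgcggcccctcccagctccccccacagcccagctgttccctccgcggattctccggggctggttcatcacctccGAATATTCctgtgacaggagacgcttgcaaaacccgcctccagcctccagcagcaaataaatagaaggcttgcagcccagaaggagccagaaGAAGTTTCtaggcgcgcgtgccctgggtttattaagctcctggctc

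HSPA8 held 2 separate 3-unit elements, which began 230 and 55 bases before the start. That of DNAJB6 began 131 bases before it and that of DNAJA1 lay just after it, 3 bases downstream. The windows of HSPA1A and HSPA1B were identical at 277 of 299 aligned bases (92.6%) and held the same 2-unit element, 106 bases before the start in HSPA1A and 105 in HSPA1B. HSPB8 held 2-unit elements 88 bases before and 4 bases after its start.

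Both cytosolic HSP90 genes were lower, against 47.1% of all expressed genes, and by a like amount on the brightest probe. HSP90AA1, the inducible form, read 7574 in HCT-8 against 6188 in HCT-8/V (log2 -0.29), and HSP90AB1, the constitutive form, read 3243 and 2683 (log2 -0.27). The other probes of HSP90AA1 gave larger differences, at 6213 and 4048 (log2 -0.62) and at 36.9 and 17.8 (log2 -1.05). All 3 of its probes were lower, but the size ran from 1.22-fold to 2.07-fold with the probe. The 4 measured HSP90 co-chaperone genes did not share this direction. STIP1, which bridges HSP70 and HSP90, read 1215 and 1111 (log2 -0.13), and PTGES3, which encodes the late co-chaperone p23, read 2220 and 2098 (log2 -0.08). CDC37, which recruits kinases, was higher at 2270 and 2694 (log2 0.25), and the immunophilin gene FKBP4 was higher at 170 and 238 (log2 0.48).

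The 3 small heat shock protein genes were all higher in HCT-8/V, against 52.8% of all expressed genes. HSPB1, which encodes HSP27, read 6353 in HCT-8 against 7725 in HCT-8/V (log2 0.28). HSPB8 read 228 and 306 (log2 0.43). CRYAB, which encodes alphaB-crystallin, read 80.8 and 129 (log2 0.68, 1.60-fold higher). Each rested on a single probe. BAG3, which links small heat shock proteins to HSP70 and steers clients to autophagy, was also higher, at 257 and 340 (log2 0.40). Of the other BAG genes, whose products release nucleotide from HSP70, BAG2 read 173 and 195 (log2 0.18). BAG1 was above the floor in HCT-8 alone (20.8 and 10.1), so it was at least 1.67-fold lower. Of the small heat shock protein genes outside the 41, 4 were below the floor on both arrays, HSPB7 read 443 and 537 (log2 0.28), and CRYAA was above the floor in HCT-8 alone (14.0 and 6.72). The 3 members and BAG3 read higher, but the family beyond them was split.

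**Figure D2:**
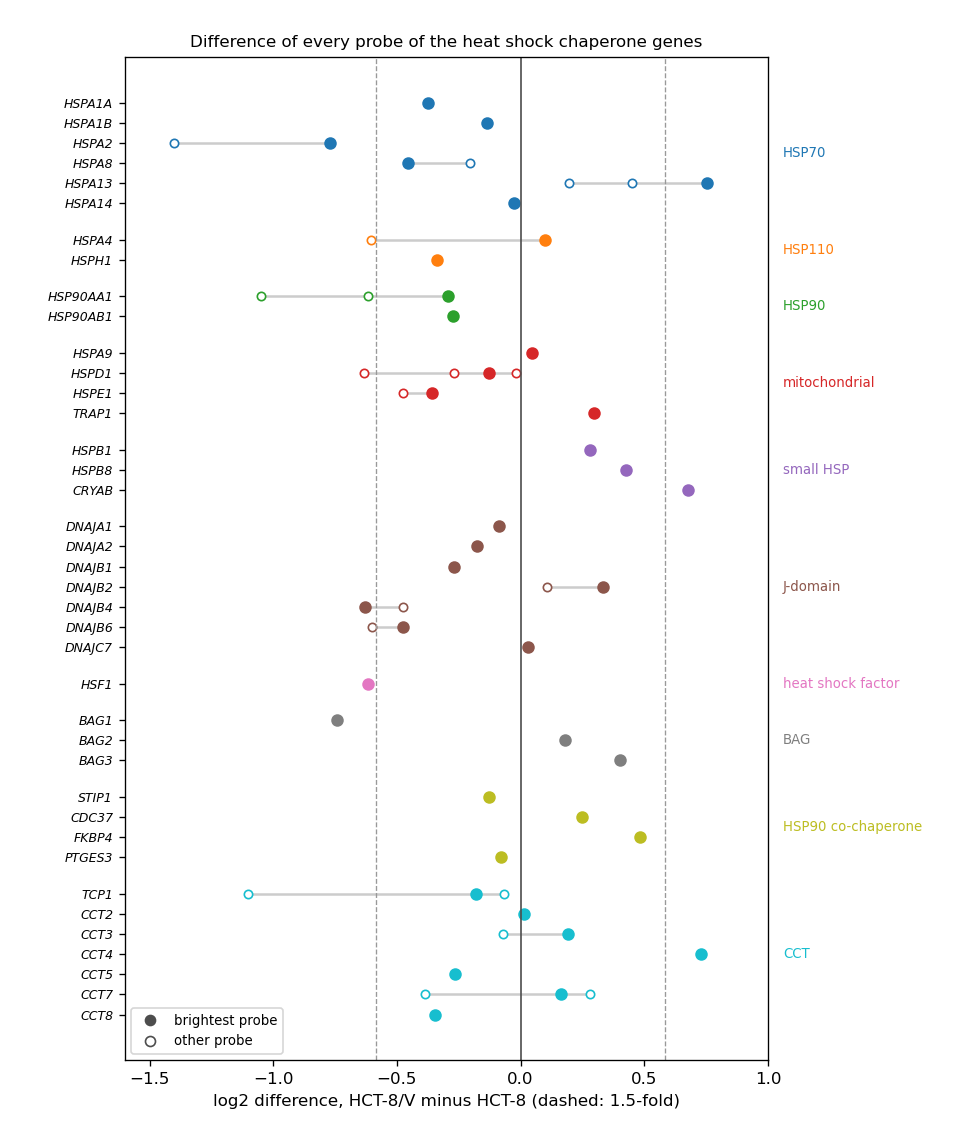
Log2 difference (HCT-8/V minus HCT-8) of each of the 58 probes, with filled points for the brightest probe of a gene, open points for the others, and dashed lines at 1.5-fold. All probes of HSPA2, HSPA8, HSP90AA1, HSPD1, HSPE1, DNAJB4, DNAJB6 and TCP1 lie left of 0, all probes of HSPA13 and DNAJB2 lie right of it, and HSPA4, CCT3 and CCT7 span it.

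The mitochondrial chaperones were split by system. HSPD1 (HSP60) and HSPE1 (HSP10) encode the chaperonin that folds imported matrix proteins, and both were lower. HSPE1 read 2108 in HCT-8 against 1643 in HCT-8/V (log2 -0.36), and its second probe 1229 and 884 (log2 -0.48). HSPD1 read 4982 and 4566 (log2 -0.13), and its second probe 3392 and 2190 (log2 -0.63). The 2 dim probes of HSPD1 read 38.4 and 37.9, and 29.1 and 24.2. All 6 probes of this pair were lower. The genes lie head to head, and their promoter windows share 204 bases on opposite strands. The mitochondrial HSP70 gene HSPA9 was level, at 3282 and 3392 (log2 0.05). The mitochondrial HSP90 gene TRAP1 was higher, at 866 and 1064 (log2 0.30).

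The CCT genes, whose products form the tubulin-folding ring, had no common direction. Of these 3 were lower and 4 higher, against 47.1% and 52.8% of all expressed genes. CCT8 read 4992 in HCT-8 against 3932 in HCT-8/V (log2 -0.34), and CCT5 read 339 and 282 (log2 -0.27). CCT4 went the other way, at 91.4 and 152 (log2 0.73, 1.66-fold higher), on a single probe. CCT2 was level at 1740 and 1756. The genes with several probes were uneven. TCP1 read 1761 and 1554 (log2 -0.18) on its brightest probe, 687 and 320 (log2 -1.10) on the second and 144 and 137 (log2 -0.07) on the third. CCT3 read 1388 and 1587 (log2 0.19) on one probe and 1480 and 1411 (log2 -0.07) on the other. CCT7 was higher on its 2 brighter probes (log2 0.16 and 0.28) and lower on the other (log2 -0.39). The 7 subunit genes thus gave log2 differences from -0.34 to 0.73 by the brightest probe.

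Several probes of a gene were then compared. Of the 13 chaperone genes with several expressed probes, 8 had all probes lower, 2 had all probes higher and 3 were mixed. Over all 3785 genes with several expressed probes, 27.8% had all probes lower and 20.7% all higher, a background over genes of every brightness. On the second brightest probe 10 of the 13 were lower and 3 higher, with a median log2 difference of -0.48. Over all 3803 expressed genes with such a probe, 56.9% were lower and 43.1% higher, with a median of -0.08. Counted by probe, 37 of 58 were lower, against 49.9% of all expressed probes. Probes of a gene read the same RNA on the same array, so their agreement bears on the reading of the transcript and not on a repeat of the culture. Transcript variants that each probe covers were not analysed here.

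**Figure D3:**
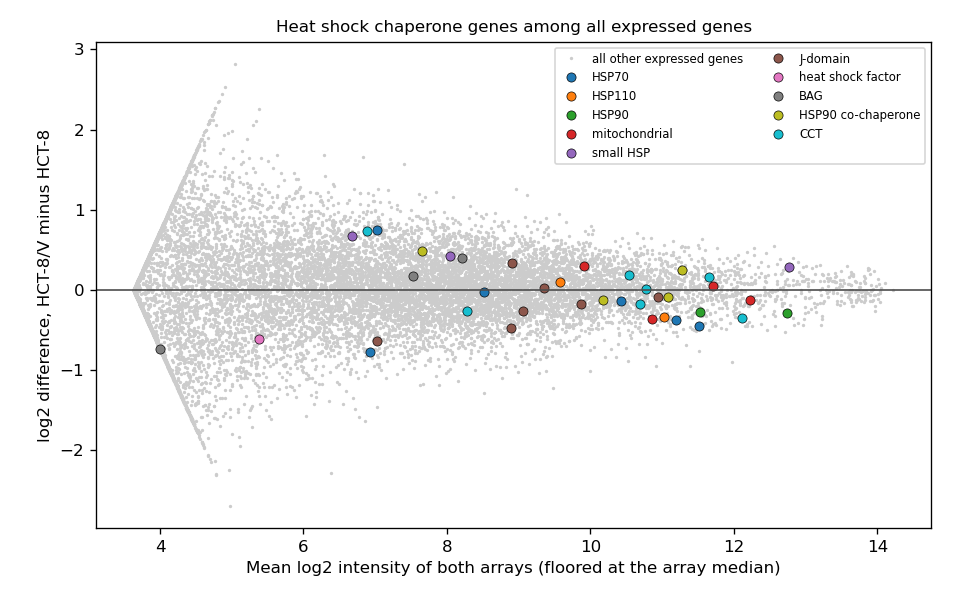
Log2 difference of each expressed gene against its mean log2 intensity over both arrays, with the 39 heat shock chaperone genes coloured by role and all other genes in grey. The cloud narrows with brightness, the chaperone genes lie within it, and 13 of the 19 genes with a mean intensity of at least 1000 lie below 0.

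Other chaperone genes, from a list of 60 of which 59 had a probe and 50 were expressed, were mostly higher. Of these 34 were higher and 16 lower, against 52.8% and 47.1% of all expressed genes, with a median log2 difference of 0.14. By a log2 difference of at least 0.32, 15 were higher and 3 lower, where the background was 25.8% higher and 22% lower. The 3 lower genes were CHORDC1, an HSP90-binding gene that heat induces (567 in HCT-8 against 417 in HCT-8/V), the prefoldin subunit gene VBP1 (1014 and 752) and GRPEL2, an exchange factor of mitochondrial HSP70 (663 and 527). The other prefoldin genes, whose products hand actin and tubulin to CCT, were higher in all 5 cases, against 52.8% of all expressed genes. PFDN6 read 274 and 388 (log2 0.50), while PFDN1 and PFDN5 were at log2 0.12 and 0.13. PFDN2 (28.4 and 47.7) and PFDN4 (26.9 and 35.9) were dim. Of the 6 expressed mitochondrial genes of this list 5 were higher and 1, GRPEL2, lower, against 52.8% and 47.1% of all expressed genes. The largest rises were in the co-chaperone HSCB of iron-sulfur cluster assembly (633 and 939), the protease gene CLPP (331 and 478) and LONP1 (685 and 862). CLPX was at log2 0.21, GRPEL1 was nearly level at 0.05, and CLPB was below the floor on both arrays. HSPA6, an HSP70 gene that is nearly silent without stress, read 27.1 and 41.3 and was dim in both lines. CCT6A, a further CCT subunit gene, read 1694 and 1536 (log2 -0.14).

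Chaperones of the endoplasmic reticulum were set beside their cytosolic relatives. Of 13 expressed genes 10 were higher and 3 lower, against 52.8% and 47.1% of all expressed genes, with a median log2 difference of 0.08. HSP90B1, the HSP90 of that compartment, read 4167 in HCT-8 against 5990 in HCT-8/V (log2 0.52), and its HSP70, HSPA5, read 1309 and 1594 (log2 0.28). Among HSP90 relatives the log2 difference on the brightest probe was therefore -0.29 and -0.27 in the cytosol, 0.30 in mitochondria and 0.52 in the endoplasmic reticulum. The other probes of the cytosolic HSP90AA1 were at -0.62 and -1.05. The HSP70 relatives were less ordered. In the cytosol HSPA8 was at -0.45 (-0.20 on its second probe), HSPA1A at -0.37, HSPA1B at -0.13, HSPA2 at -0.77 and HSPA14 at -0.03. Of HSP70 genes outside the 41, the dim HSPA6 was at 0.61, HSPA1L at -0.14 and HSPA12A at -0.19. The cytosolic HSP110 relatives were at 0.10 for HSPA4 (-0.60 on its second probe), 0.01 for HSPA4L and -0.34 for HSPH1. HSPA9 of mitochondria was at 0.05, the microsomal HSPA13 at 0.75, and of the endoplasmic reticulum genes HSPA5 was at 0.28 and the HSP110 relative HYOU1 at -0.22. With 1 array per line these differences between compartments could not be tested.

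Genes that respond to handling were read alongside, since heat shock genes respond to it too. Of 11 expressed immediate early genes 6 were higher and 5 lower, with a median log2 difference of 0.01. DUSP1 (2021 in HCT-8 against 1618 in HCT-8/V), ATF3 (706 and 579) and FOS (307 and 213) were lower, while GADD45B (197 and 269), KLF6 (271 and 314) and the dim FOSB (31.8 and 78.2) were higher. Their part in the chaperone differences was not tested. Of 10 housekeeping genes 4 were higher and 6 lower, with a median log2 difference of -0.03. Single housekeeping genes differed by sizes in the range of HSPA8 and HSPA1A or more, YWHAZ for example at 3591 and 2698 (log2 -0.41) and PPIA at 116 and 70.8 (log2 -0.71).

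**Figure D4:**
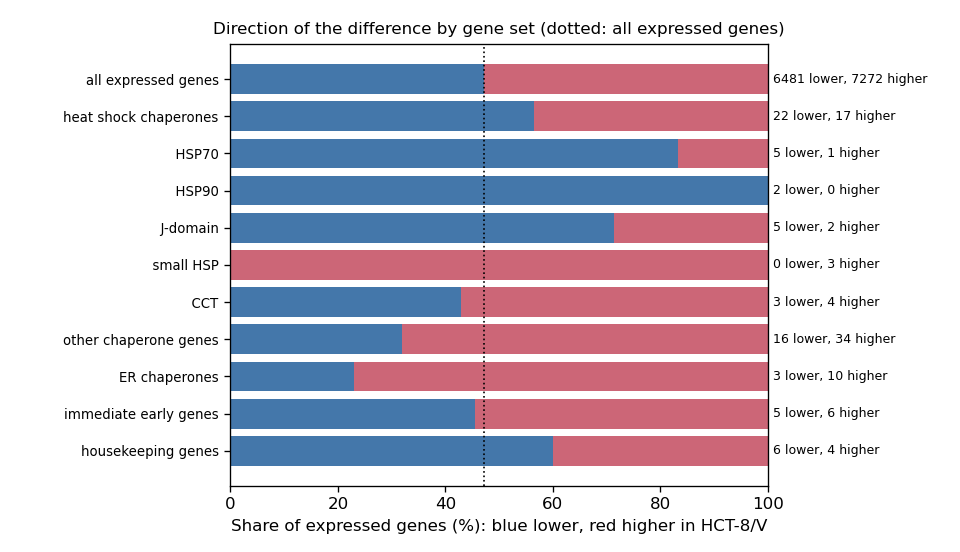
Share of expressed genes lower (blue) and higher (red) in HCT-8/V for each gene set, with the counts at the right and the share over all expressed genes dotted. The HSP70, HSP90 and J-domain genes lie above the 47.1% of all expressed genes in their share of lower genes. So do the housekeeping genes, with 6 of 10 lower. The small heat shock, other chaperone and endoplasmic reticulum sets lie below it.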

How the data were processed

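RNA of HCT-8 and of HCT-8/V was hybridised to 1 Illumina array each, with no replicate. The deposited table held 1 linear intensity per probe and array for 47323 probes. The authors' background correction and scaling are not given in the sources used here. The deposited values ran from -44.98 to 19759 on both arrays, so they had been background-subtracted and matched in distribution before deposit. A shift of most transcripts in one direction would therefore not show. The file gave no detection p-values and no bead counts, and the number of arrays limits the precision.

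Probe names came from the platform annotation, which gave a single symbol to 30113 probes, several to 8 and none to 17202. Only probes with a single symbol were used. Current names came through the Entrez gene ID from the RefSeq gene table of GRCh38.p14, which matched 30074 of those probes, and the other 39 kept their annotated symbol. Each of 20046 genes was represented by its brightest probe by mean intensity. Intensities were floored at each array's median (12.44 for HCT-8, 12.42 for HCT-8/V) and taken to log2. Genes above the floor on 1 array or both are called expressed. Every difference is that of HCT-8/V relative to HCT-8. No test was possible, so calls were made by size, at 1.5-fold, with a log2 difference of 0.32 and a fold of 2 as alternatives. The other alternatives were quantile normalization, median centring, subtraction of a loess fit on brightness (span 0.3), a floor at the 75th percentile, no floor (46.0 added before the log2), the mean of a gene's probes and the second brightest probe. Heat shock element motifs were searched in RefSeq promoter windows of GRCh38.p14. The work was done in Python 3.11.15 with pandas 2.3.3 and statsmodels 0.14.6, and the difference script was checked on simulated intensities.

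The members and gene lists, and the folds used, were chosen with earlier results of these data known. The text names every member. Of the other chaperone genes, the rule was to name those at least 1.5-fold different and above the 75th percentile on at least 1 array. None met it, so those named were chosen after their values were seen.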

Additional observations from a re-analysis of the deposited data

How the results depend on the processing

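No paired analysis was possible because each line had 1 array. Under quantile normalization, median centring and loess removal, 22 to 24 chaperone genes were lower and 15 to 17 higher. The calls at 1.5-fold and the agreement of several probes also stayed within 1.5 times the reported counts. Under centring only CCT2 and DNAJC7, both near 0, changed sign. The deposited values were already matched in distribution, so quantile normalization could change little. Centring moved each log2 difference by only 0.03. Both are therefore weak checks. With the floor at the 75th percentile 37 genes were expressed, 2 were at least 1.5-fold lower, and 0 had all of several probes higher. With no floor 0 genes passed 1.5-fold lower and 0 higher, where the offset shrinks every fold. At a log2 difference of 0.32 the counts were 10 lower and 7 higher, and at 2-fold 0 and 0, with BAG1 taken at its bound. The second brightest probe, present for 13 genes, gave a median log2 difference of -0.48, with 10 lower and 3 higher. On it 6 were at least 1.5-fold lower and 0 at least 1.5-fold higher. The share of all second brightest probes past 1.5-fold was not counted, so these calls have no background beside them. HSPA4 changed sign with the second brightest probe (-0.60) and with the mean over all probes (-0.25), and CCT3 with the second probe (-0.07). The cause of these probe differences was not tested. No gene past 1.5-fold reversed under any alternative in which it had a value. HSF1 and BAG1 had none at the higher floor. Both are dim, and their values are limited by signal over background.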

Other observations

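The size of the difference within single genes moved with the probe that was read. The largest gaps among the chaperone genes were in TCP1, from log2 -1.10 to -0.07, HSP90AA1, from -1.05 to -0.29, and HSPA4, from -0.60 to 0.10. Over all expressed genes, too, 47.1% were lower in HCT-8/V on the brightest probe and 56.9% on the second brightest, the latter only for genes with several probes.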
